A study of Mus musculus with 24 samples.

Results

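The diet response of Ogg1-/- mouse liver was described as the difference between the livers of 6 Ogg1-/- mice fed a high-fat diet (HFD) and the livers of 6 Ogg1-/- mice fed rodent chow, which make up 12 of the 24 livers in the series. The 12 livers were taken by their sample titles, in a comparison set up with earlier results of these data known. Ogg1-/- mice carry a whole-body deletion of Ogg1 and had been backcrossed repeatedly to C57BL/6J, and the strain label of all samples is C57BL6. All mice were male, were housed alone and ate chow or the HFD freely for 10 weeks. The labels give their age as 10 weeks, and the study's methods give an older age at the start of feeding. The other 12 livers came from 6 chow-fed and 6 HFD-fed wild-type (WT) mice handled in the same way, and serve here as the comparison for the diet response. One Mouse Gene ST GeneChip array was run per liver, and the deposited values are log2 signals of 35556 probe sets. On this scale a difference of 1 is a 2-fold difference, and all differences below are HFD minus chow. The cells were not sorted, so fewer cells of a type and less RNA per cell cannot be told apart.

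OGG1 is a DNA glycosylase that starts base excision repair of 8-oxoguanine, a common oxidised base, in the nucleus and in mitochondria. The liver meets a fat-rich diet by storing triglyceride in lipid droplets, by burning fatty acids in mitochondria and peroxisomes, and by lowering its own cholesterol synthesis when sterols are plentiful, because the transcription factor SREBP-2 is then held back. Rodent liver also differs strongly between the sexes: the pulsed growth hormone pattern of males keeps genes such as Hsd3b5 and Cyp4a12a high, and keeps female-type genes such as Cyp2b9 and Cyp2b13 low.

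The genes with the largest changes included 3 members of 1 gene cluster on chromosome 7, which moved in opposite directions. Cyp2b13 and Cyp2b9, female-type cytochrome P450 genes, were higher on the HFD, and Cyp2b10, a P450 gene known as a target of the xenobiotic receptor CAR, was lower. The 250 bases before their starts are shown so that the promoters of these neighbours can be compared (RefSeq, GRCm38.p6, all on the + strand), for Cyp2b9 at chr7:26173159-26173408, for Cyp2b13 at chr7:26061245-26061494 and for Cyp2b10 at chr7:25897408-25897657. Capitals mark bases that differ from Cyp2b9 at the same position of an ungapped alignment.
Cyp2b9: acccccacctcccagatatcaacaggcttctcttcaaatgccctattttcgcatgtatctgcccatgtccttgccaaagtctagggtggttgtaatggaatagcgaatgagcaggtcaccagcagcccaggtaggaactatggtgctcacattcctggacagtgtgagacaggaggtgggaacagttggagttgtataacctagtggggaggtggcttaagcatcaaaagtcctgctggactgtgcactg
Cyp2b13: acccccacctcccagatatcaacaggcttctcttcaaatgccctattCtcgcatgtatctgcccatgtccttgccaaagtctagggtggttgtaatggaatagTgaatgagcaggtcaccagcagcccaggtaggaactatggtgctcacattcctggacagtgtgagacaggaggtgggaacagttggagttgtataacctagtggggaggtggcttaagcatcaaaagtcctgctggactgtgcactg
Cyp2b10: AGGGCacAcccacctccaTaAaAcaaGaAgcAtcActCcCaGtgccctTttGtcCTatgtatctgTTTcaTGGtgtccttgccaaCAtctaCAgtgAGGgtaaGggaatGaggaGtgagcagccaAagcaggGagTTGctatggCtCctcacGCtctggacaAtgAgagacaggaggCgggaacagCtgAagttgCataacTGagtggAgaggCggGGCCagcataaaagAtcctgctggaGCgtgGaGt
The Cyp2b13 window matched that of Cyp2b9 at 248 of 250 bases (99.2%), and the Cyp2b10 window matched it at 186 (74.4%). Genes this alike can share probe sequence, and the part of signal shared between the probe sets was not tested.

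The Ogg1 probe set was read before anything else, because it checks the labels. Its mean was 5.93 ± 0.06 (SD, n = 6) in chow-fed Ogg1-/- livers and 6.47 ± 0.11 in chow-fed WT livers. On the HFD the means were 5.87 ± 0.13 and 6.46 ± 0.08. The genotypes did not overlap on either diet (2-sided exact permutation test, p = 0.00216 on each diet). The mean of 14 hepatocyte markers was 13.1 to 13.5 in the Ogg1-/- livers, against array medians of 5.90 to 5.97 over all probe sets, as the tissue label implies. One library stood apart. Chow replicate 1 had a median correlation with the other chow-fed Ogg1-/- livers of 0.970, where the same value of the other 23 arrays within their groups was 0.985 to 0.992, and it was the highest or lowest of its group at 61.8% of probe sets. The RMA summary was made by the submitters with this array among the others, and leaving it out below removes its values and not its part in that summary.

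Of the 35556 probe sets, 1107 (3.11%) were called between the diets in Ogg1-/- livers, which means an adjusted p under 0.05 in limma and a fold of at least 1.5. Of these, 237 (0.667%) were higher on the HFD and 870 (2.45%) were lower. The adjusted p alone was passed by 3388 probe sets (9.53%), of which 1630 were higher and 1758 lower, so that the excess of lower calls is seen with the fold threshold. Without chow replicate 1 the called probe sets numbered 2493 (7.01%), of which 440 (1.24%) were higher and 2053 (5.77%) lower, and 9035 (25.4%) passed the adjusted p alone, of which 4563 were higher and 4472 lower. All 1093 probe sets called both with and without that array had the same direction, 14 were called only with it and 1400 only without it. At 2408 of the 2493 probe sets called without it (96.6%), chow replicate 1 was shifted from the other chow-fed livers toward the HFD-fed livers. Over all probe sets this share was 75.4%. Both differences use the other chow-fed livers, so that part of this agreement is built in.

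Other arrays also set the count. It was 723 without chow replicate 4, 474 without chow replicate 5, 493 without chow replicate 6 and 563 without HFD replicate 1, and between 768 and 1197 without any of the other Ogg1-/- arrays but chow replicate 1. Higher probe sets were fewer than lower ones in each of these 12 counts. Among named genes the called group held 164 higher and 521 lower genes of 19938. Their genomic spans are given as a description, with no test: the median span was 12.2 kb for the higher genes and 53.1 kb for the lower genes, against 17.7 kb for all genes. The called genes were also brighter, with median levels of 8.46 (higher) and 8.09 (lower) against 6.33 for all genes. These medians were 9.33 kb and 48.2 kb without chow replicate 1.

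**Figure D1:**
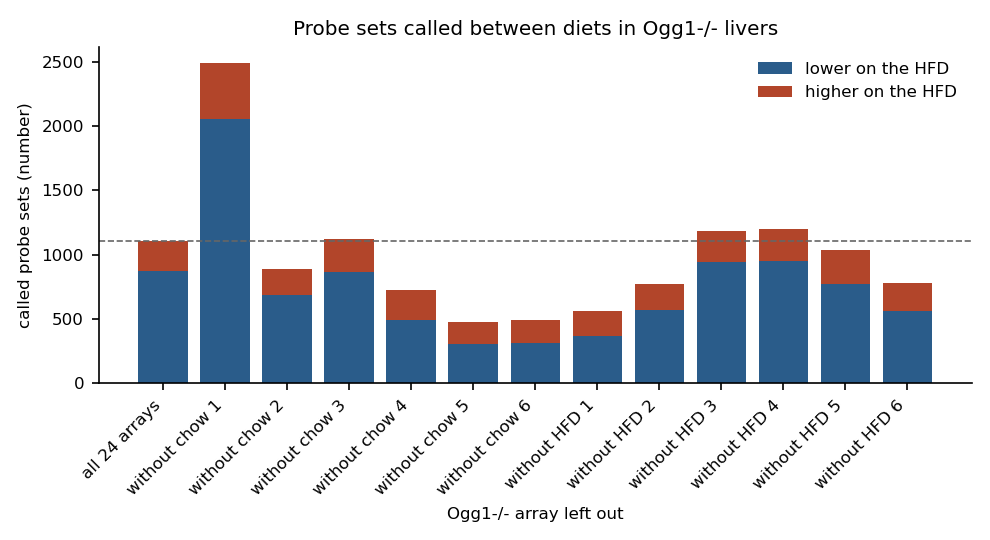
Number of probe sets called between HFD and chow in Ogg1-/- livers (y axis) with all 24 arrays and with each Ogg1-/- array left out (x axis); the stacked bars are probe sets lower and higher on the HFD and the dashed line is the total with all arrays. The total of 1107 became 2493 without chow replicate 1, and 474 to 563 without chow replicate 5, chow replicate 6 or HFD replicate 1.

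The genes described below kept their direction under the alternatives that were run, except Nat8. Unless a sentence says otherwise, a gene written as higher or lower also kept an adjusted p under 0.05 when any 1 of the 12 Ogg1-/- arrays was left out, chow replicate 1 among them. That covers those fits only. Under the methods' t-test, 62 of the 175 genes past the test in the naming pool (described below) kept it.

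Among called genes without overlap between the diets, the largest rises were those of the female-type P450 genes. Cyp2b13 read 3.88 to 5.75 (median 4.41) in the 6 chow-fed Ogg1-/- livers and 8.40 to 9.81 (median 9.06) in the 6 HFD-fed livers, a difference of 4.42 ± 0.48 (SE; adjusted p = 1.74e-05). Every HFD-fed liver was far above every chow-fed liver. All chow-fed values lay below the array medians over all probe sets and are not shown to be above background, so that the size of this difference is uncertain. Cyp2b9 read 5.98 to 11.45 (median 9.42) on chow and 12.44 to 13.24 (median 12.68) on the HFD, a difference of 3.84 ± 0.63 (adjusted p = 0.0009). The chow-fed livers were spread over more than 5 log2 units and the HFD-fed livers over less than 1, without overlap.

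The next rises were of transporters and lipid-handling genes. Mfsd2a, a transporter of lysophosphatidylcholine that carries docosahexaenoic acid, read 8.77 to 10.64 (median 10.19) on chow and 12.02 to 12.90 (median 12.62) on the HFD, a difference of 2.68 ± 0.39 (adjusted p = 0.000261). Slc22a27, of the SLC22 transporter family, differed by 2.19, Slc16a5, of the monocarboxylate transporter family, by 2.13 and Acnat2, an acyl-CoA to amino acid acyltransferase, by 2.0. Cyp2a22, another P450, differed by 2.16, 9030619P08Rik by 1.98 and Saa2, an acute phase protein, by 1.95. All of these were picked among called genes in which the diets did not overlap, so that the lack of overlap was part of the choice. Over all genes, 1.96% were higher and 0.873% were lower in all 6 HFD-fed than in all 6 chow-fed Ogg1-/- livers.

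Among genes without overlap, the largest falls were in genes of sterol and asparagine synthesis. Sqle, the squalene epoxidase of cholesterol synthesis, read 9.54 to 10.18 (median 9.85) on chow and 5.98 to 7.24 (median 7.04) on the HFD, a difference of -3.02 ± 0.50 (adjusted p = 0.000918). Its chow-fed livers lay within 1 log2 unit of each other, and all HFD-fed livers were over 2 units below them. Asns, asparagine synthetase and a target of ATF4, read 8.31 to 10.50 (median 8.97) on chow and 6.11 to 7.59 (median 6.31) on the HFD, a difference of -2.75 ± 0.35 (adjusted p = 6.75e-05). Chow replicates 3 and 5 were its highest livers.

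The other large falls without overlap were Cyp4a12b, a male-type fatty acid hydroxylase (-2.40), Idi1 of the cholesterol pathway (-2.32), the adhesion receptor Adgrf1 (-2.04), the P450 genes Cyp2c55 (-2.01) and Cyp2b10 (-1.96), Cyp51 of the cholesterol pathway (-1.91), the growth factor receptor Egfr (-1.70) and the glycolytic enzyme Aldoc (-1.59). Cyp2b10 read 8.46 to 9.98 (median 8.95) on chow and 6.73 to 7.81 (median 7.05) on the HFD (adjusted p = 7.92e-05). It fell while its 2 neighbours with the printed promoters rose.

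**Figure D2:**
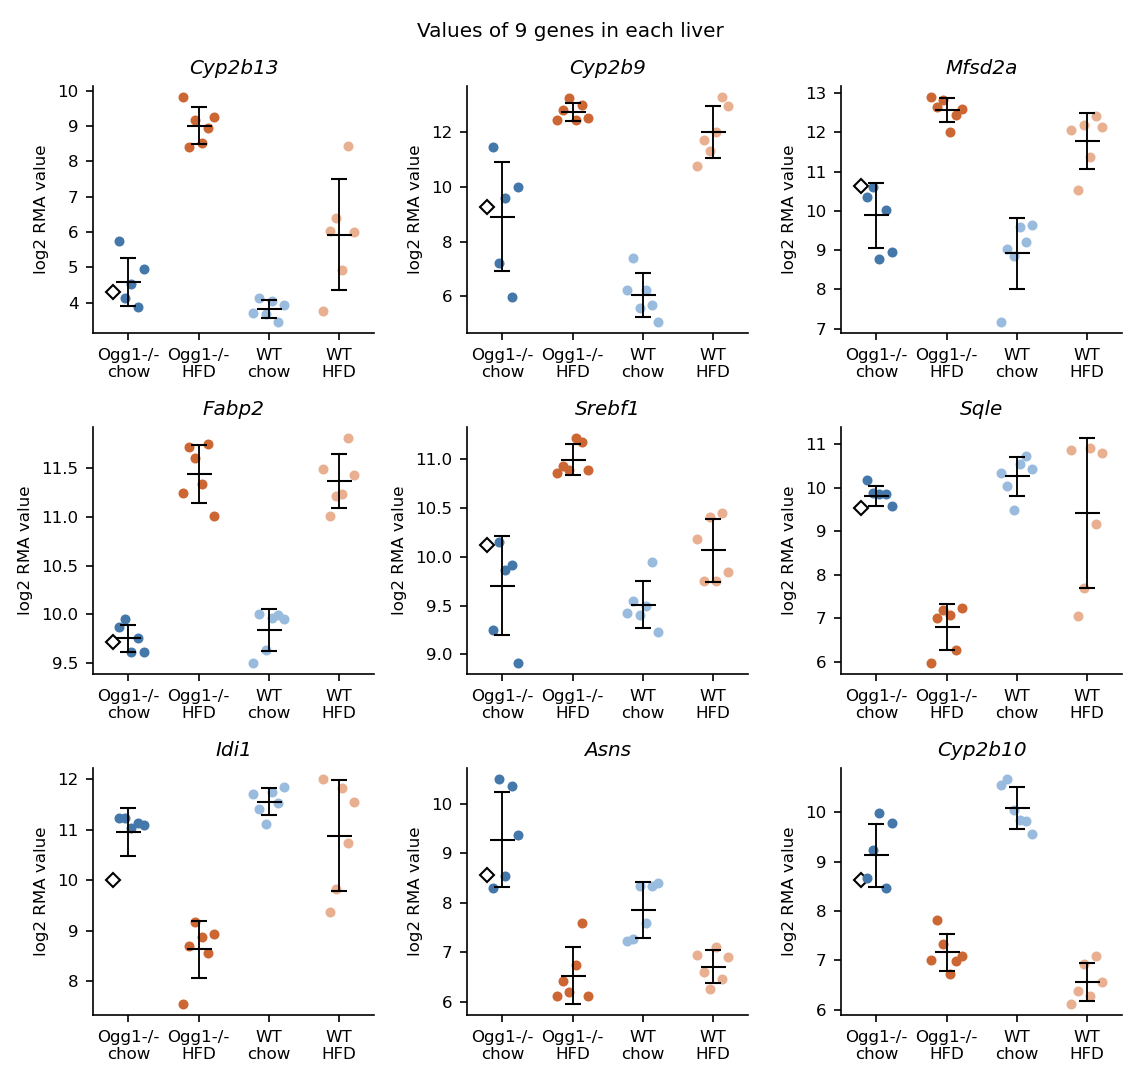
Log2 RMA values (y axis) of 9 genes in each liver of the 4 groups (x axis); points are livers, the open diamond is chow replicate 1 of the Ogg1-/- livers, and black bars are the mean and SD (n = 6). In all 9 panels the HFD-fed and chow-fed Ogg1-/- livers do not overlap, with Cyp2b13 at 8.40 or more on the HFD and at 5.75 or less on chow. Lack of overlap was a condition for naming the genes with the largest changes.

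Gene lists were then read by how many measured members passed an adjusted p under 0.05, beside the shares over all genes, which were 5.59% higher and 5.87% lower with all arrays and 16% and 14.7% without chow replicate 1. The median difference over all genes was 0.04, or 0.06 without chow replicate 1. The lists were chosen with earlier results of these data known, so that their counts are no independent evidence of a direction. Counts also depended on the test. Under the methods' t-test the lower counts of male-biased genes, endothelial markers and cholesterol genes were 7, 0 and 10, against 16, 6 and 9.

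Some genes of lipid storage rose. Of 24 lipid droplet genes and PPAR-gamma targets, 9 were higher and 0 were lower on the HFD (11 and 1 without chow replicate 1), and 8 to 11 were higher when any 1 array was left out. Fabp2, a fatty acid binding protein best known from the intestine, read 9.61 to 9.95 (median 9.74) on chow and 11.01 to 11.75 (median 11.46) on the HFD, a difference of 1.69 ± 0.13 (adjusted p = 2.28e-07). The livers of each diet lay within 1 log2 unit, with a gap of 1 unit between the diets. Apoa4, an apolipoprotein known to rise in fat-laden liver, read 10.15 to 10.59 (median 10.23) on chow and 11.30 to 12.75 (median 12.35) on the HFD, a difference of 1.90 ± 0.33 (adjusted p = 0.00155). G0s2, an inhibitor of the triglyceride lipase ATGL, read 7.86 to 9.16 (median 8.30) on chow and 9.44 to 10.51 (median 10.36) on the HFD, a difference of 1.78 ± 0.25 (adjusted p = 0.000219). Cidec, a protein that lets lipid droplets fuse, read 6.24 to 6.77 (median 6.46) on chow and 6.90 to 9.19 (median 8.35) on the HFD, a difference of 1.70 ± 0.46 (adjusted p = 0.0225). Its HFD-fed livers were spread widely, and the adjusted p passed 0.05 without chow replicate 5, chow replicate 6 or HFD replicate 2, reaching 0.0595.

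Of 13 genes of triglyceride synthesis, 6 were higher and 1 was lower (7 and 1 without chow replicate 1). Gpat3, which adds the first fatty acid, read 6.23 to 7.02 (median 6.42) on chow and 7.25 to 7.85 (median 7.59) on the HFD, a difference of 1.0 ± 0.14 (adjusted p = 0.000219). Agpat2, which adds the second, read 12.02 to 12.59 (median 12.32) on chow and 12.77 to 13.04 (median 12.86) on the HFD, a difference of 0.59 ± 0.08 (adjusted p = 0.000234). Gpd1, which makes glycerol 3-phosphate, differed by 0.62 (adjusted p = 0.00209). None of the 3 overlapped between the diets, and chow replicate 1 was the highest chow-fed liver in each. Lpin2, a phosphatidate phosphatase, was the lower gene at -0.76, and its adjusted p of 0.0492 held without chow replicate 1 (0.000951) but rose to as much as 0.149 without any 1 of 10 others of the 12 arrays, and was 0.0505 with the replicate number as a block.

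Genes of fatty acid synthesis did not move as a group. Of 23, 5 were higher and 0 lower (6 and 2 without chow replicate 1), and the higher count fell to 2 without chow replicate 6 and also fell by over 1.5 times without chow replicate 2, chow replicate 5 or HFD replicate 6. Srebf1, which encodes SREBP-1, the main activator of these genes, read 8.91 to 10.15 (median 9.89) on chow and 10.85 to 11.21 (median 10.91) on the HFD, a difference of 1.29 ± 0.18 (adjusted p = 0.000206). All 6 HFD-fed livers were above all chow-fed livers. Pklr, the liver pyruvate kinase that feeds the pathway, rose by 0.82 ± 0.15 (adjusted p = 0.00189). These enzymes and 1 coactivator of the pathway did not pass the test: the difference was 0.52 ± 0.34 for fatty acid synthase Fasn (adjusted p = 0.366), -0.20 ± 0.25 for acetyl-CoA carboxylase Acaca (0.681) and -0.14 ± 0.15 for stearoyl-CoA desaturase Scd1 (0.636). Ppargc1b, a coactivator of SREBP-1, differed by -0.14 ± 0.09 (0.331). These 4 adjusted p values were 0.212, 0.582, 0.574 and 0.109 without chow replicate 1.

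Fatty acid oxidation genes rose in part. Of 27 peroxisomal genes, 9 were higher and 2 lower (12 and 6 without chow replicate 1; 0 lower without chow replicate 2, and 1 or 0 without chow replicates 4, 5 or 6 or HFD replicates 1 or 6). Acot3 and Acot4, peroxisomal acyl-CoA thioesterases, rose by 1.74 ± 0.31 (adjusted p = 0.00195) and 1.09 ± 0.22 (adjusted p = 0.00448), and Acaa1b, a peroxisomal thiolase, rose by 0.67 ± 0.17 (adjusted p = 0.0144). Acot3 read 6.39 to 8.90 (median 7.32) on chow and 8.54 to 9.51 (median 9.30) on the HFD, with some overlap. Of 22 mitochondrial oxidation genes, 5 were higher and 0 lower with all arrays, but 6 were higher and 5 lower without chow replicate 1. Hadh, which carries out the third step of beta-oxidation, read 12.60 to 12.96 (median 12.91) on chow and 13.12 to 13.28 (median 13.27) on the HFD, a difference of 0.37 ± 0.06 (adjusted p = 0.000812). Eci1, needed for unsaturated fatty acids, rose by 0.48 ± 0.07 (adjusted p = 0.000525). Both changes were small, and neither gene overlapped between the diets.

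Targets of PPAR-alpha that mark fasting were higher for 5 of 17 genes and lower for 0 (8 and 0 without chow replicate 1; 2 without HFD replicate 2, and over 1.5 times fewer without chow replicate 5, chow replicate 6 or HFD replicate 5). Vnn1, a pantetheinase, rose by 1.08 ± 0.22 (adjusted p = 0.00523) and Bdh1, which makes the ketone body beta-hydroxybutyrate, by 0.66 ± 0.08 (adjusted p = 2.34e-05). Bdh1 read 10.71 to 11.12 (median 10.95) on chow and 11.47 to 11.69 (median 11.59) on the HFD, 2 narrow groups without overlap. Ppara itself differed by -0.12 ± 0.13 (adjusted p = 0.607) and Cpt1a, the gate of fatty acid entry into mitochondria, by 0.09 ± 0.12 (adjusted p = 0.695). Without chow replicate 1 their adjusted p values were 0.119 and 0.978.

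Nearly as many genes of cholesterol synthesis fell as did not pass. In the list of cholesterol synthesis and uptake, 0 of 20 members were higher and 9 were lower (0 and 11 without chow replicate 1), and 7 to 11 were lower when any 1 array was left out. The median difference of the list was -0.78, or -0.70 without chow replicate 1. Idi1, the isomerase that makes dimethylallyl diphosphate, read 10.01 to 11.23 (median 11.11) on chow and 7.56 to 9.17 (median 8.79) on the HFD, a difference of -2.32 ± 0.36 (adjusted p = 0.000512). Chow replicate 1 was its lowest chow-fed liver and still lay above every HFD-fed liver. Cyp51, the lanosterol demethylase, read 8.97 to 10.03 (median 9.94) on chow and 7.09 to 8.22 (median 7.97) on the HFD, a difference of -1.91 ± 0.35 (adjusted p = 0.00216). Nsdhl, which acts next to it in sterol demethylation, differed by -1.48 ± 0.30 (adjusted p = 0.00411), and Stard4, a carrier of cholesterol between membranes, by -1.11 ± 0.21 (adjusted p = 0.00263). Sqle, given above, showed the largest fall of the list.

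The mean over the 20 genes was 10.30 to 10.66 (median 10.46) in chow-fed and 9.07 to 9.72 (median 9.56) in HFD-fed Ogg1-/- livers, without overlap and with chow replicate 1 inside the range of its group (10.32). In HFD-fed WT livers the same mean ran from 9.25 to 11.25 (median 10.62), overlapping both Ogg1-/- groups.

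Promoter windows were searched for TCACNCCAC, a form of the sterol regulatory element that SREBP proteins bind, on both strands. It was in 1 of the 16 cholesterol genes with a promoter in the table, Hmgcs1, the cytosolic HMG-CoA synthase, and in 331 of all 27025 genes with one (1.05% of 32851 promoters). Hmgcs1 differed by -1.20 ± 0.35 (adjusted p = 0.032; 0.00808 without chow replicate 1), and other arrays were not left out in turn for this gene. Its window is shown beside those of Idi1 and Cyp51, which fell further without these letters in their windows (RefSeq, GRCm38.p6; Hmgcs1 chr13:119690101-119690350, + strand; Idi1 chr13:8885356-8885605, + strand; Cyp51 chr5:4104698-4104947, - strand). Capitals mark the match.
Hmgcs1: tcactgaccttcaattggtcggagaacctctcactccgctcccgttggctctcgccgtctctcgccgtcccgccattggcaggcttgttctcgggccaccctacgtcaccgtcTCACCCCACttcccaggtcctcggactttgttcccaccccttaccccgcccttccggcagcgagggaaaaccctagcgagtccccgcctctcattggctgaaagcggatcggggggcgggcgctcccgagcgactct
Idi1: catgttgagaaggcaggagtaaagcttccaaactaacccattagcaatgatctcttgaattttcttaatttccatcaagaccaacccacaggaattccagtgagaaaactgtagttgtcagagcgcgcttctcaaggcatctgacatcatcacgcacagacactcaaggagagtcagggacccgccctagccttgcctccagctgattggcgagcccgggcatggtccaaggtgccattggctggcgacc
Cyp51: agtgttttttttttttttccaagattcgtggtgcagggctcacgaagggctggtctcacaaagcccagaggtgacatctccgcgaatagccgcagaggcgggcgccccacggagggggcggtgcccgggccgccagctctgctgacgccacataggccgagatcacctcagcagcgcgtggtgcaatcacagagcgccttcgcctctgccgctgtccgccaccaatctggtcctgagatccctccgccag
A match is a run of letters and was not tested as a binding site, and a sterol element outside these windows or in another spelling would not be found.

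**Figure D3:**
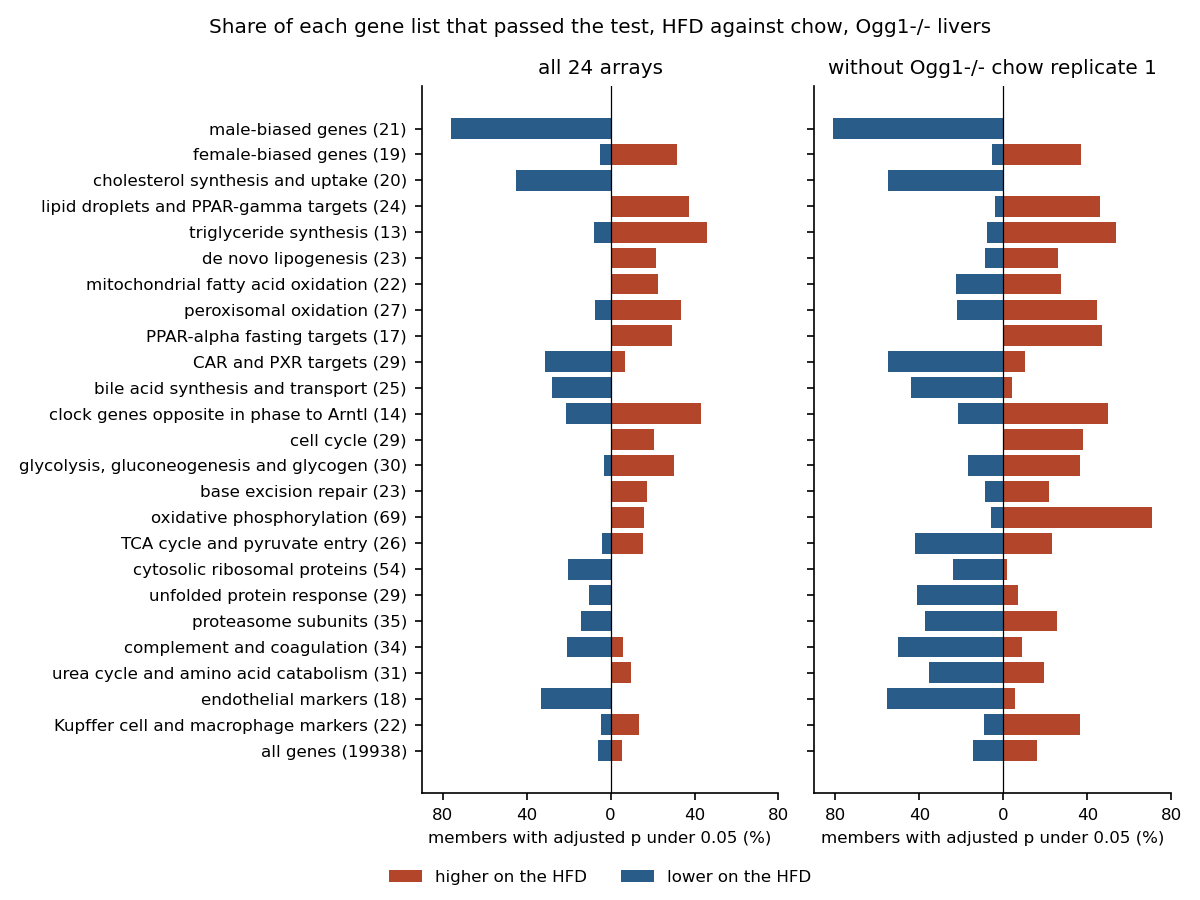
Share of the measured members of 24 gene lists, and of all genes, that were higher (right of 0) or lower (left of 0) on the HFD in Ogg1-/- livers at an adjusted p under 0.05 (x axis, %), with all arrays and without chow replicate 1; the number of measured members is in parentheses. Male-biased genes (16 of 21 lower) and cholesterol genes (9 of 20 lower) stand out on the left in both panels, and oxidative phosphorylation goes from 11 to 49 of 69 higher.

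Most male-biased genes fell and several female-biased genes rose. Of 21 male-biased genes, 0 were higher and 16 were lower (0 and 17 without chow replicate 1; 12 to 17 lower when any 1 array was left out), with a median difference of -0.87. Hsd3b5, a steroid-metabolising enzyme with very strong male bias, read 10.54 to 12.43 (median 11.91) on chow and 5.52 to 10.97 (median 7.85) on the HFD, a difference of -3.73 ± 0.94 (adjusted p = 0.0161). Its HFD-fed livers were spread over more than 5 log2 units, and the highest of them overlapped the lowest chow-fed liver, chow replicate 1. Cyp4a12b read 11.01 to 12.94 (median 12.55) on chow and 9.18 to 10.93 (median 9.94) on the HFD (adjusted p = 7.92e-05), and its near copy Cyp4a12a differed by -2.07 ± 0.30 (adjusted p = 0.00023). These 2 genes are so alike that their probe sets may read each other's RNA, which was not tested. Slco1a1, an organic anion uptake transporter, read 9.98 to 11.78 (median 11.17) on chow and 8.02 to 10.84 (median 8.42) on the HFD, a difference of -2.02 ± 0.47 (adjusted p = 0.0111). In all 4, chow replicate 1 was the lowest chow-fed liver.

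The mean over the 21 male-biased genes was 9.49 in chow replicate 1, 10.09 to 10.64 (median 10.52) in the other 5 chow-fed livers and 9.01 to 9.61 (median 9.09) in HFD-fed livers. Chow replicate 1 therefore lay among the HFD-fed livers on this measure. Of 19 female-biased genes, 6 were higher and 1 was lower (7 and 1 without chow replicate 1). Besides Cyp2b9, Cyp2b13 and Acot3, Hao2, a peroxisomal hydroxy-acid oxidase, read 4.07 to 4.34 (median 4.25) on chow and 5.50 to 6.21 (median 5.81) on the HFD, a difference of 1.59 ± 0.24 (adjusted p = 0.000334). The chow-fed values of Hao2 were nearly equal, below the array medians and not shown to be above background, and all HFD-fed values were above them. The growth hormone and IGF-1 axis had 3 of 15 genes lower and 0 higher (7 and 1 without chow replicate 1). Egfr, whose liver level depends on growth hormone, read 10.92 to 12.10 (median 11.34) on chow and 9.16 to 10.63 (median 9.42) on the HFD (adjusted p = 0.000612). Lifr, the receptor of leukaemia inhibitory factor, differed by -1.57 ± 0.32 (adjusted p = 0.00489). Bcl6, a repressor of female-type genes in male liver, differed by -1.80 ± 0.47 (adjusted p = 0.0194) and lost the call without chow replicate 6 or HFD replicate 1 (adjusted p up to 0.0539).

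Targets of the xenobiotic receptors CAR and PXR were lower for 9 of 29 genes and higher for 2 (16 and 3 without chow replicate 1; 6 to 16 lower when any 1 array was left out). Cyp2c55 read 6.27 to 8.55 (median 7.71) on chow and 5.13 to 5.90 (median 5.47) on the HFD, a difference of -2.01 ± 0.27 (adjusted p = 0.000131). Chow replicate 1 was its lowest chow-fed liver, just above the highest HFD-fed liver. Its HFD-fed values lay at or below the array medians and are not shown to be above background. Ces2a, a carboxylesterase, read 10.30 to 10.86 (median 10.76) on chow and 9.18 to 9.95 (median 9.49) on the HFD, a difference of -1.13 ± 0.14 (adjusted p = 5.84e-05). Alas1, the rate-limiting enzyme of haem synthesis, went the other way, with 10.62 to 11.70 (median 11.27) on chow and 12.38 to 12.67 (median 12.49) on the HFD, a difference of 1.34 ± 0.25 (adjusted p = 0.00249).

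The count of mitochondrial genes rested on chow replicate 1. Of 69 subunits and assembly factors of oxidative phosphorylation, 11 were higher and 0 lower on the HFD with all arrays, 49 were higher and 4 lower without chow replicate 1, and 1 was higher without chow replicate 5. The higher count also fell by over 1.5 times without any 1 of the remaining Ogg1-/- arrays except HFD replicates 3 and 5, and was 1 when arrays were centred on reference genes and 0 when the 12 Ogg1-/- arrays were fitted alone. The mean over the 69 genes was 11.26 in chow replicate 1, 10.76 to 10.92 (median 10.81) in the other 5 chow-fed livers and 11.02 to 11.15 (median 11.07) in HFD-fed livers. It was thus above all HFD-fed livers, and the other 5 chow-fed livers were below all of them. Ndufs5, a subunit of complex I, read 8.48 to 9.51 (median 8.71) on chow, with chow replicate 1 the highest, and 9.30 to 9.42 (median 9.31) on the HFD, a difference of 0.52 ± 0.12 (adjusted p = 0.0111) that became 0.66 without chow replicate 1 (adjusted p = 2.76e-05).

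Of 26 genes of the TCA cycle and pyruvate entry, 4 were higher and 1 lower with all arrays, and 6 were higher and 11 lower without chow replicate 1. Some of the higher ones act on pyruvate. Mpc1, the mitochondrial pyruvate carrier, read 11.78 to 12.28 (median 11.99) on chow and 12.53 to 12.63 (median 12.58) on the HFD, a difference of 0.59 ± 0.07 (adjusted p = 4.37e-05). Pcx, pyruvate carboxylase, rose by 0.55 ± 0.08 (adjusted p = 0.000339) and Suclg1, a subunit of succinyl-CoA ligase, by 0.32 ± 0.06 (adjusted p = 0.00466). None of the 3 overlapped between the diets. Ogdh, of the oxoglutarate dehydrogenase complex, fell by 0.31 on the log2 scale (adjusted p = 0.00842), with chow replicate 1 as the lowest chow-fed liver.

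Of 23 regulators of mitochondrial gene expression (PGC-1, PPAR and ERR factors and AMPK subunits), 1 was higher and 5 were lower (7 and 9 without chow replicate 1). The lower count went to 0 without chow replicate 5 and fell by over 1.5 times without chow replicates 2, 4 or 6 or HFD replicates 1, 2 or 6, and the higher count rose without HFD replicates 3 or 5. Ppargc1a, which encodes the coactivator PGC-1alpha, read 6.40 to 7.59 (median 7.30) on chow and 6.35 to 6.75 (median 6.62) on the HFD, a difference of -0.64 ± 0.18 (adjusted p = 0.0304). Chow replicate 1 was its lowest chow-fed liver, and the other 5 chow-fed livers were above all HFD-fed livers (-0.80, adjusted p = 0.000642 without it). The adjusted p rose above 0.05, to 0.0895 at most, without any 1 of chow replicates 2, 4, 5 and 6 and HFD replicates 1, 2, 5 and 6.

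**Figure D4:**
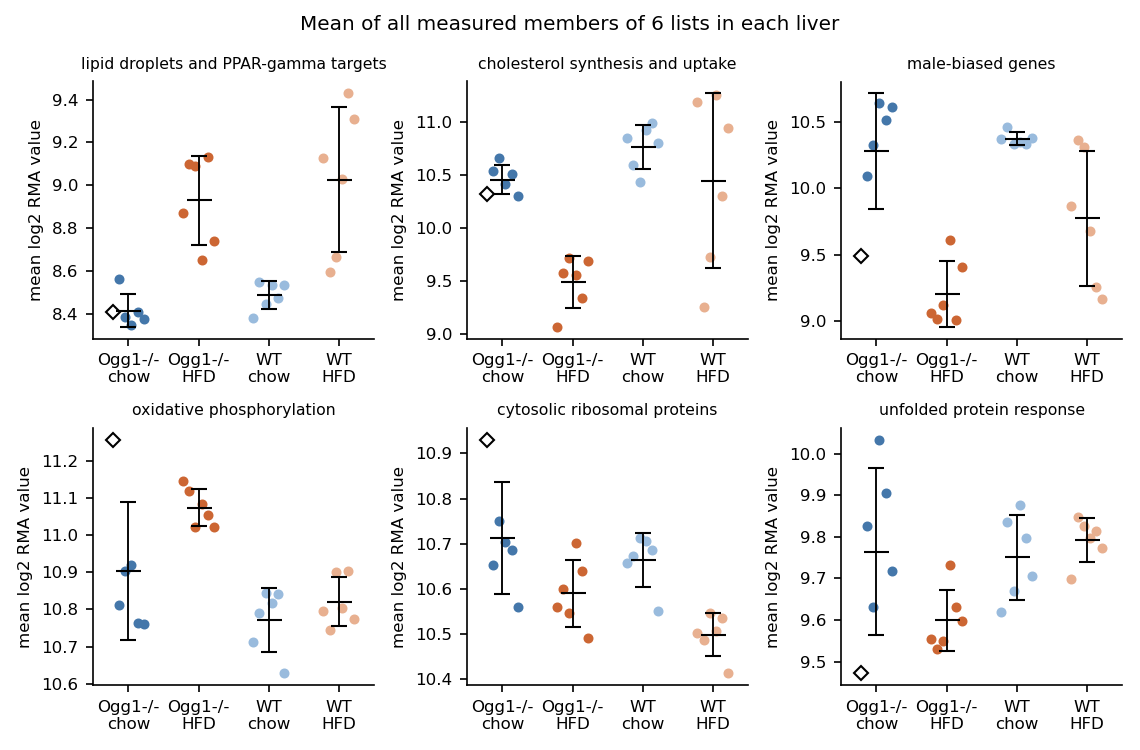
Mean log2 RMA value over all measured members of 6 gene lists (y axis) in each liver of the 4 groups (x axis); points are livers, the open diamond is chow replicate 1 of the Ogg1-/- livers, and black bars are the mean and SD (n = 6). For oxidative phosphorylation chow replicate 1 is at 11.26, above the HFD-fed Ogg1-/- livers (11.02 to 11.15), and the other 5 chow-fed livers are at 10.76 to 10.92.

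Of 31 genes of the urea cycle and amino acid catabolism, 3 were higher and 0 lower (6 and 11 without chow replicate 1), among them Gpt, alanine aminotransferase, at 0.51 (adjusted p = 0.00661). The lower count also rose without chow replicate 2 or HFD replicates 3 or 4. Of 24 NRF2 and antioxidant genes, 1 was higher and 2 lower (3 and 5 without chow replicate 1), and these calls rested on single arrays: the higher one was lost without chow replicate 5, and 1 lower gene was lost without chow replicates 2, 4, 5 or 6 or HFD replicates 1, 2, 3 or 6.

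Among 30 genes of glycolysis, gluconeogenesis and glycogen, 9 were higher and 1 was lower (11 and 5 without chow replicate 1; 5 higher without chow replicate 6, and over 1.5 times fewer without HFD replicate 1). The 1 lower gene was lost without chow replicates 2, 5 or 6 or HFD replicates 1, 2, 3, 5 or 6, and more were lower without chow replicate 3. Ppp1r3b, which brings protein phosphatase 1 to glycogen, read 8.06 to 8.48 (median 8.36) on chow and 8.96 to 9.61 (median 9.28) on the HFD, a difference of 0.99 ± 0.14 (adjusted p = 0.000233). All HFD-fed livers were above all chow-fed livers. Khk, the fructokinase, rose by 0.72 ± 0.13 (adjusted p = 0.00152), with chow replicate 1 inside the HFD range, and Pfkl, the liver phosphofructokinase, by 0.47 ± 0.10 (adjusted p = 0.00489). Of 20 genes of insulin signalling, 3 were higher and 5 lower (5 and 8 without chow replicate 1). The higher count went to 0 without chow replicate 4 and fell by over 1.5 times without any other 1 of the 12 arrays but chow replicates 1 and 2 and HFD replicate 3, and the lower count went to 3 without chow replicate 5. Pik3ca, the catalytic subunit of the insulin-activated PI 3-kinase, read 7.01 to 8.45 (median 7.91) on chow and 6.44 to 7.05 (median 6.96) on the HFD, a difference of -0.98 ± 0.21 (adjusted p = 0.00619). Trib3, a pseudokinase that binds AKT, fell by 0.59 on the log2 scale (adjusted p = 0.00161) without overlap.

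Bile acid genes had 7 of 25 members lower and 0 higher (11 and 1 without chow replicate 1; 4 lower without chow replicate 2, and over 1.5 times fewer without chow replicates 4, 5 or 6 or HFD replicates 1, 2, 5 or 6). Abcb11, the bile salt export pump, read 10.24 to 11.70 (median 11.32) on chow and 10.13 to 10.54 (median 10.25) on the HFD, a difference of -0.93 ± 0.18 (adjusted p = 0.0034). Klb, the coreceptor for FGF15 and FGF21, fell by 0.84 on the log2 scale (adjusted p = 0.00688). In both, chow replicate 1 was the lowest chow-fed liver and lay within the HFD range, and the other 5 chow-fed livers were above it. Among 19 apolipoprotein and VLDL genes, 3 were higher and 2 lower (8 and 5 without chow replicate 1). Sort1, a sorting receptor that affects VLDL secretion, read 7.88 to 8.23 (median 8.17) on chow and 6.43 to 7.43 (median 7.03) on the HFD, a difference of -1.09 ± 0.14 (adjusted p = 9.57e-05). Apom, which carries sphingosine 1-phosphate, fell by 0.78 on the log2 scale (adjusted p = 0.00186), and Apoa5, an activator of triglyceride clearance, rose by 0.41 (adjusted p = 0.00148). The diets did not overlap in any of the 3.

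Acute phase genes moved in both directions. Of 23, 6 were higher and 4 lower (7 and 6 without chow replicate 1). Saa2 read 6.08 to 7.35 (median 6.76) on chow and 7.95 to 9.40 (median 8.73) on the HFD (adjusted p = 0.000338), without overlap. Saa1, its paralogue, rose by 1.0 ± 0.24 (adjusted p = 0.0117), and the part of signal shared by the 2 probe sets was not tested. Lcn2, an iron-siderophore binding protein, read 7.54 to 9.14 (median 8.41) on chow and 8.92 to 10.87 (median 10.15) on the HFD, a difference of 1.66 ± 0.39 (adjusted p = 0.0108). The lower count, of fibrinogen chains and Orm1, fell to 1 without chow replicate 2 and by over 1.5 times without chow replicates 4, 5 or 6 or HFD replicates 1, 2 or 6. Of 34 complement and coagulation genes, 2 were higher and 7 lower (3 and 17 without chow replicate 1; 4 lower without chow replicate 2, and over 1.5 times fewer without chow replicates 4, 5 or 6 or HFD replicates 1, 2 or 6). The higher count fell to 1 without chow replicates 5 or 6 or HFD replicate 1. Complement C2 fell by 0.71 on the log2 scale (adjusted p = 0.0009), coagulation factor F11 differed by -1.02 (adjusted p = 0.0109), and Mbl2, a mannose-binding lectin, rose by 0.78 (adjusted p = 0.000115). Among 28 interferon-induced genes, 3 were higher and 2 lower (5 and 8 without chow replicate 1; 1 higher without chow replicate 5, and 1 or 0 lower without any other 1 of the 12 arrays but chow replicate 1 and HFD replicates 3 and 4), and Tap1, the peptide transporter of antigen presentation, rose by 0.56 (adjusted p = 0.00506). Among 29 cytokines, chemokines and adhesion genes, 2 were higher and 1 lower (2 and 2 without chow replicate 1; 0 higher without chow replicate 5, and 1 or 0 without any other 1 of the arrays but chow replicate 1 and HFD replicates 3 and 4). The lower one, the chemokine Ccl9, read 10.31 to 10.87 (median 10.51) on chow and 8.93 to 10.17 (median 9.38) on the HFD, a difference of -1.09 ± 0.16 (adjusted p = 0.000334).

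Counts of genes of protein synthesis, folding and turnover rested on single arrays. For the unfolded protein response, 0 of 29 genes were higher and 3 lower (2 and 12 without chow replicate 1; 0 lower without chow replicate 2, and over 1.5 times fewer without chow replicates 4, 5 or 6 or HFD replicates 1, 2, 5 or 6). The mean over the 29 genes was 9.47 in chow replicate 1, 9.63 to 10.03 (median 9.83) in the other chow-fed livers and 9.53 to 9.73 (median 9.58) in HFD-fed livers. Dnajc3, an endoplasmic reticulum co-chaperone that inhibits PERK, read 8.28 to 10.44 (median 10.15) on chow and 8.48 to 9.20 (median 9.06) on the HFD, a difference of -0.88 ± 0.25 (adjusted p = 0.0303). The value of chow replicate 1 was below all 6 HFD-fed livers, and the other 5 chow-fed livers were above all of them (-1.19, adjusted p = 2.83e-05 without it). The adjusted p of Dnajc3 rose to 0.0923 at most without any 1 of 7 other arrays.

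Of 26 ATF4 targets and tRNA synthetases, 2 were higher and 3 lower (5 and 9 without chow replicate 1; 0 higher without chow replicate 5, and over 1.5 times fewer without chow replicates 2, 4 or 6 or HFD replicates 1, 2, 3 or 6). Besides Asns, given above, Lars, the leucyl-tRNA synthetase, fell by 0.45 on the log2 scale (adjusted p = 0.013). Among 20 heat shock chaperones, 3 were higher and 1 lower (5 and 7 without chow replicate 1; 0 lower without chow replicate 2, 4, 5 or 6 or HFD replicate 1, 2 or 6, and over 1 without HFD replicate 3). Hspe1, the mitochondrial co-chaperonin, rose by 0.49 ± 0.10 (adjusted p = 0.00425) and Ahsa1, an activator of HSP90, by 0.34 ± 0.08 (adjusted p = 0.0118). Among ribosomal proteins of the cytosol, 0 of 54 were higher and 11 lower (1 and 13 without chow replicate 1; 6 lower without chow replicate 3, over 1.5 times fewer without chow replicates 2, 4 or 5 or HFD replicates 1, 2 or 6, and 1 when the 12 arrays were fitted alone). Rpl7 fell by 0.98 on the log2 scale (adjusted p = 0.00615) and Rps4x by 0.69 (adjusted p = 0.0124). Processed copies of ribosomal protein genes are common, and signal from such copies in these probe sets was not tested. Of 35 proteasome subunits, 0 were higher and 5 lower (9 and 13 without chow replicate 1; 1 lower without chow replicate 5, over 1.5 times fewer without chow replicates 2, 4 or 6 or HFD replicates 1, 2 or 6, and over 1.5 times more without HFD replicates 3 or 5), with Psme4, a nuclear proteasome activator, at -0.91 (adjusted p = 0.0137).

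Clock genes passed in both directions. Of 14 clock genes whose daily peak is opposite to that of Arntl, 6 were higher and 3 lower (7 and 3 without chow replicate 1), against 9 higher and 0 lower in WT livers. The genotypes started from different levels. The mean over the 14 genes was 8.74 to 9.02 in chow-fed and 9.03 to 9.41 in HFD-fed Ogg1-/- livers. In WT livers it was 7.63 to 7.98 on chow and 8.19 to 8.70 on the HFD, so that chow-fed Ogg1-/- livers already lay above all WT livers. Ciart, a repressor of the CLOCK complex, read 7.87 to 9.60 (median 9.30) on chow and 9.96 to 11.06 (median 10.47) on the HFD, a difference of 1.35 ± 0.31 (adjusted p = 0.0101), with chow replicate 2 far below the rest. Per1, a core repressor, differed by 0.84 ± 0.21 (adjusted p = 0.0172) and lost the call without chow replicate 5 or HFD replicate 1 (adjusted p up to 0.0579). Bhlhe41, another repressor, went the other way, with 7.32 to 8.08 (median 7.56) on chow and 6.14 to 7.21 (median 6.72) on the HFD, a difference of -0.92 ± 0.21 (adjusted p = 0.00966). Of 4 genes with the phase of Arntl, 1 was higher and 1 lower, and the lower one, Clock, fell by 1.19 on the log2 scale (adjusted p = 0.0105). The higher one did not keep the call without chow replicates 3, 5 or 6 or HFD replicates 1, 2 or 6. Of 15 glucocorticoid receptor targets, 1 was higher and 1 lower (2 and 2 without chow replicate 1), and neither call held without chow replicate 5. The E-box CACGTG was in the promoter window of 4 of 11 of the opposite-phase genes with a window, Bhlhe41, Ciart, Per1 and Tef, and of 1854 of all 27025 genes with one (6.02% of promoter windows). It was also in 4 of 16 cholesterol genes and in 0 of 21 lipid droplet genes and PPAR-gamma targets with a window. The sources used here do not state at what hour the livers were taken.

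In base excision repair, the pathway that lacks OGG1 in these mice, 4 of 23 genes were higher and 0 lower (5 and 2 without chow replicate 1; 1 higher without chow replicate 5, and over 1.5 times fewer without any other 1 of the arrays but chow replicate 1 and HFD replicates 3 and 4). Nudt1, which removes 8-oxo-dGTP from the nucleotide pool, read 6.85 to 7.59 (median 7.14) on chow and 7.47 to 7.81 (median 7.61) on the HFD, a difference of 0.45 ± 0.10 (adjusted p = 0.00816). Nudt1 was the only one of the 4 that kept an adjusted p under 0.05 without any 1 array, and it acts on free nucleotides and not on DNA. The glycosylases Neil1 and Nthl1 differed by 0.28 ± 0.09 (adjusted p = 0.0496) and 0.27 ± 0.08 (adjusted p = 0.0392), and Pcna, the sliding clamp, by 0.20 ± 0.06 (adjusted p = 0.0331). Of these 3, Neil1 lost the call without any 1 of 10 of the 12 arrays, and Nthl1 and Pcna without any 1 of 7, with adjusted p values up to 0.146, 0.115 and 0.0909. The 3 adjusted p values were 0.00349, 0.0134 and 0.0282 without chow replicate 1. Among 22 p53 targets and DNA damage genes, 3 were higher and 3 lower (6 and 6 without chow replicate 1; 0 lower without chow replicate 5, and over 1.5 times fewer without chow replicates 2, 3, 4 or 6 or HFD replicates 1, 5 or 6), and Ei24, a p53-induced gene of autophagy, rose by 0.50 (adjusted p = 0.0036).

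Cell cycle genes were higher where they passed. Of 29, 6 were higher and 0 lower (11 and 0 without chow replicate 1; 12 without HFD replicate 4 and 3 without chow replicate 6). Ccnd1, cyclin D1, read 8.12 to 8.83 (median 8.71) on chow and 8.96 to 9.89 (median 9.57) on the HFD, a difference of 0.93 ± 0.16 (adjusted p = 0.00101). Birc5, a chromosomal passenger protein of mitosis, rose by 0.49 ± 0.10 (adjusted p = 0.0036), and Mcm2, a subunit of the replicative helicase, by 0.58 ± 0.13 (adjusted p = 0.00842). The mean over the 29 genes was 5.78 to 5.93 in chow-fed and 5.88 to 6.26 in HFD-fed livers, near the array medians, with chow replicate 1 the highest chow-fed liver. In iron homeostasis, 2 of 17 were higher and 1 lower (5 and 3 without chow replicate 1; 1 higher without chow replicates 2, 5 or 6 or HFD replicates 2 or 6, and 0 lower without chow replicates 4, 5 or 6 or HFD replicate 1). Hamp2, a hepcidin gene, read 8.82 to 10.58 (median 9.06) on chow and 10.33 to 10.93 (median 10.56) on the HFD, a difference of 1.33 ± 0.22 (adjusted p = 0.000924). Its chow-fed livers were all at 9.21 or less except chow replicate 1 at 10.58, and the difference was 1.59 without that array (adjusted p = 2.37e-06). Among 28 autophagy and lysosome genes, 3 were higher and 2 lower (8 and 4 without chow replicate 1; over 1.5 times fewer higher without chow replicates 2, 5 or 6 or HFD replicate 1, and 1 lower without HFD replicate 1). Pink1, a kinase of mitophagy, rose by 0.38 (adjusted p = 0.0118) and Map1lc3b, which encodes the autophagosome protein LC3B, fell by 0.36 on the log2 scale (adjusted p = 0.00192).

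Markers of liver cell types moved with the diet in part. Of 18 endothelial markers, 0 were higher and 6 lower (1 and 10 without chow replicate 1; 0 lower without chow replicate 5, and over 1.5 times fewer without chow replicate 6). Their mean was 8.51 in chow replicate 1, 8.84 to 8.99 (median 8.90) in the other 5 chow-fed livers and 8.54 to 8.70 (median 8.63) in HFD-fed livers. Of 22 markers of Kupffer cells and macrophages, 3 were higher and 1 lower (8 and 2 without chow replicate 1; 1 higher without chow replicate 5, and over 1.5 times fewer without chow replicate 6). Cd5l, a secreted macrophage protein, rose by 0.64 ± 0.13 (adjusted p = 0.00516) and Msr1, a scavenger receptor, fell by 0.49 on the log2 scale (adjusted p = 0.013). Of 14 hepatocyte markers, 1 was higher and 1 lower (1 and 5 without chow replicate 1), calls that did not hold without chow replicate 5, and their mean was 13.14 in chow replicate 1, 13.31 to 13.46 in the other chow-fed livers and 13.21 to 13.32 in HFD-fed livers. Zonation lists also moved: 5 of 16 pericentral markers were higher and 0 lower (5 and 2 without chow replicate 1; 3 higher without chow replicate 2, and over 1.5 times fewer without chow replicates 4, 5 or 6 or HFD replicates 1 or 6), among them Cyp2c38, a P450 (1.33 ± 0.30, adjusted p = 0.00865), and Lect2, a Wnt-induced hepatokine (0.57 ± 0.08, adjusted p = 0.000115). Of 12 periportal markers, 1 was higher and 2 lower (1 and 6 without chow replicate 1, and over 2 lower without HFD replicate 4), with Cdh1, E-cadherin, at -1.48 ± 0.24 (adjusted p = 0.000875).

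Chow replicate 1 was also apart on other lists. The mean of 17 lymphocyte markers was 5.73 in it, 5.42 to 5.53 in the other chow-fed livers and 5.38 to 5.59 in HFD-fed livers. The mean of 14 pancreas, muscle and blood markers was 6.39 in it and 6.13 to 6.26 in the other chow-fed livers. On the mean of 54 ribosomal protein genes it was at 10.93, above all other Ogg1-/- livers (10.49 to 10.75). The part of cell makeup in the results above and in the standing of this array was not tested. Of 31 stellate cell and fibrosis genes, 0 were higher and 3 lower (5 and 4 without chow replicate 1; 1 lower without chow replicate 2, and over 1.5 times fewer without chow replicates 5 or 6 or HFD replicates 1, 2, 3 or 6). Of 17 lymphocyte markers 0 were higher and 1 lower, of 9 cholangiocyte markers 1 was higher and 1 lower, and of 14 pancreas, muscle and blood markers 1 was higher and 0 lower, and none of these calls held without chow replicate 5. Of 8 adipocyte markers, 0 passed in either direction.

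The same contrast in WT livers called 137 probe sets (0.385%), or 187 (0.526%) in the fit without chow replicate 1 of the Ogg1-/- livers. Of the 137, 90 (65.7%) were also called in Ogg1-/- livers, all in the same direction, and they made up 8.13% of the 1107. The 2 contrasts share no livers, but both use the spread estimated in 1 fit over all 4 groups, so that their calls are not independent. Over all genes, 0.742% were higher and 0.371% lower in HFD-fed than in chow-fed WT livers at an adjusted p under 0.05. The median absolute diet difference over all probe sets was 0.0999 in WT and 0.127 in Ogg1-/- livers (0.154 without chow replicate 1). Some of the largest changes were alike in size: Mfsd2a differed by 2.86 in WT and 2.68 in Ogg1-/- livers, Fabp2 by 1.52 and 1.69, Adgrf1 by -2.03 and -2.04, and Apoa4 by 2.35 and 1.90. Sqle differed by -0.84 in WT livers (adjusted p = 0.476) and -3.02 in Ogg1-/- livers, and Idi1 by -0.67 (adjusted p = 0.426) and -2.32. The HFD-fed WT livers were far apart in Sqle, with 7.05, 7.71, 9.16, 10.79, 10.86 and 10.92. Of the 20 cholesterol genes, 0 passed in WT livers in either direction, and of the 21 male-biased genes 0 were higher and 3 lower. The median WT differences of these lists were -0.33 and -0.65, against -0.78 and -0.87 in Ogg1-/- livers. Of the 19 female-biased genes, 4 were higher and 1 lower in WT livers, against 6 and 1. In the interaction, 0 male-biased and 0 female-biased genes had an adjusted p under 0.05, with or without chow replicate 1. Of the cholesterol genes 0 had one with all arrays, and 1 was lower without that array. Asns differed by -1.15 in WT livers (adjusted p = 0.131). The difference between the genotypes in these responses was not past the threshold for Sqle, Idi1 or Asns (adjusted p = 0.119, 0.0624 and 0.0744 without chow replicate 1).

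**Figure D5:**
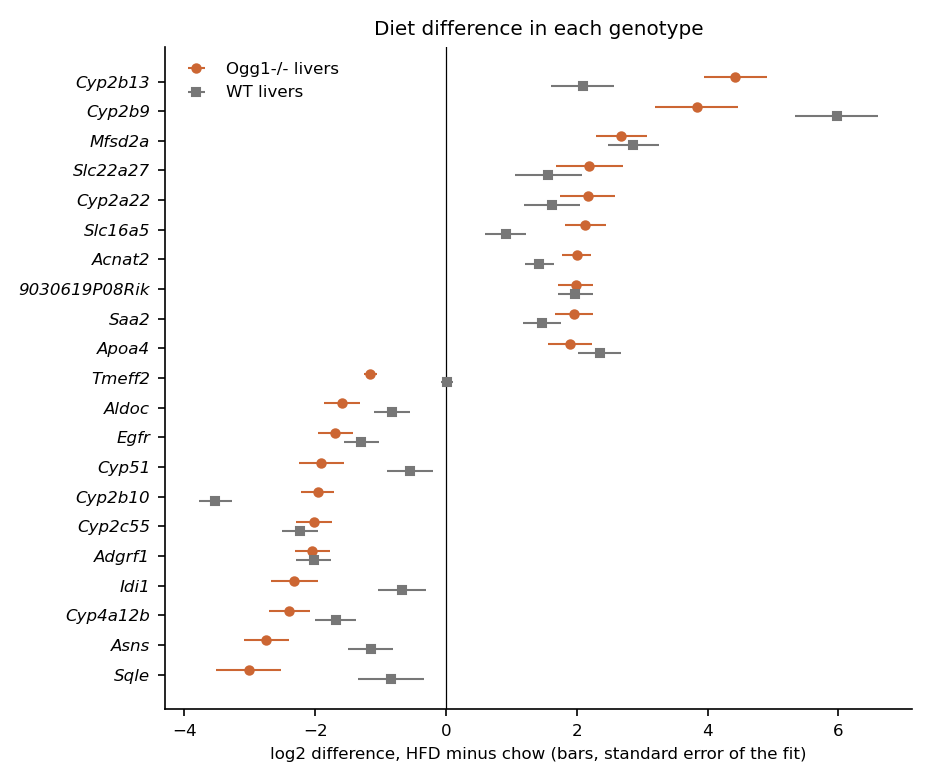
Log2 difference between HFD and chow (x axis) in Ogg1-/- livers (circles) and WT livers (squares) for the 20 genes with the largest changes without overlap in Ogg1-/- livers and for Tmeff2 (y axis); bars are the standard error of the fit. Mfsd2a and Adgrf1 lie at nearly the same place in both genotypes, and Tmeff2 is at -1.16 in Ogg1-/- and 0.02 in WT livers.

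The difference between the diet responses was itself tested as an interaction. With all arrays, 1 probe set was called (0.00281%), that of Tmeff2, a transmembrane protein with follistatin-like domains. Tmeff2 read 6.0 to 6.53 (median 6.22) in chow-fed and 4.85 to 5.39 (median 5.04) in HFD-fed Ogg1-/- livers, a difference of -1.16 ± 0.10 (adjusted p = 3.55e-07). In WT livers it read 4.78 to 5.11 on chow and 4.81 to 5.26 on the HFD, a difference of 0.02 (adjusted p = 0.961). All chow-fed Ogg1-/- livers lay above all livers of the other 3 groups, which overlapped. The values of those 3 groups lay below the array medians and are not shown to be above background, so that the size of this difference is uncertain. The study also lists Tmeff2 as higher in chow-fed Ogg1-/- than in chow-fed WT livers, so that its diet responses started from different levels.

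Without chow replicate 1, 272 probe sets (0.765%) were called in the interaction, 53 with a higher and 219 with a lower contrast. The absolute diet difference was larger in Ogg1-/- livers at 261 of them and larger in WT livers at 11. This count was fragile: leaving out a further array, an alternative chosen after seeing the data, gave from 11 (chow replicate 5) to 589 (WT HFD replicate 3), with 22 without chow replicate 6 and 29 with the replicate number as a block. Cyp2b10 was among the genes called: it differed by -3.53 in WT and -2.06 in Ogg1-/- livers, an interaction of 1.46 (adjusted p = 0.0452). In chow-fed WT livers Cyp2b10 read 9.57 to 10.67, overlapping the 8.46 to 9.98 of chow-fed Ogg1-/- livers, and in HFD-fed WT livers 6.12 to 7.09.

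Some others of the 179 genes called in the interaction without chow replicate 1 did not pass in WT livers. Hamp2 had an interaction of 1.23 (adjusted p = 0.0211; 0.36 in WT livers), Aldh1b1, a mitochondrial aldehyde dehydrogenase, of 0.99 (adjusted p = 0.0425; -0.23 in WT livers), Slc45a3, of the SLC45 transporter family, of 0.88 (adjusted p = 0.0252; -0.17), Hspe1 of 0.70 (adjusted p = 0.0211; -0.13) and H2ac4, a histone H2A gene, of 0.90 (adjusted p = 0.0354; 0.18). Stard4 had an interaction of -1.10 (adjusted p = 0.0401; -0.17 in WT livers), Dnajc3 of -1.10 (adjusted p = 0.0229; -0.10) and Bhlhe41 of -1.21 (adjusted p = 0.0418; 0.39). The study lists Bhlhe41 as higher in chow-fed Ogg1-/- than in chow-fed WT livers, so that its diet responses started from different levels. Nat8, an acetyltransferase, was the reverse case. It differed by -1.01 in WT livers (adjusted p = 0.000665) and by -0.06 in Ogg1-/- livers (adjusted p = 0.86), or -0.0098 without chow replicate 1, where the interaction was 1.0 (adjusted p = 0.0277). Ppara had an interaction of -0.66 without chow replicate 1 (adjusted p = 0.0339), with 0.42 in WT livers (adjusted p = 0.135 with all arrays) and -0.24 in Ogg1-/- livers without that array.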

How the data were processed

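Liver RNA of 24 mice was hybridised to Affymetrix Mouse Gene ST arrays, 1 per mouse. The deposited values are log2 signals that the authors made with RMA (background correction, quantile normalization and probe set summary over arrays), with no version named in the sources used here. They ran from 1.81 to 14.81, with array medians of 5.9 to 5.97, and hold no counts, so that the number of arrays limits the precision. Probe sets were named from the platform annotation updated through RefSeq: 21789 had 1 gene symbol, 1621 several and 12146 none, and 21698 matched RefSeq.

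All 35556 probe sets were fitted in limma 3.58.1 (R 4.3.3) over the 4 groups of 6 mice, with contrasts for diet in Ogg1-/- livers, diet in WT livers and their difference. Benjamini-Hochberg adjustment was over all probe sets, and a called probe set had an adjusted p under 0.05 and a fold of at least 1.5. Genes were represented by their probe set of highest mean over all arrays (19938 genes). The 47 gene lists were described by counts and medians, with no set test. Genes were named from a pool holding Ogg1 and genes the study measured by qPCR, the 10 largest rises and 10 largest falls without overlap, up to 4 passing members of each list, and genes of the interaction. The pool also held the largest changes among genes called only with or only without chow replicate 1. The largest interactions without that array and the printed Cyp2b genes were added to it after the data were seen. Hmgcs1 was named outside this pool, for its motif, after its value was seen. The members and lists were chosen with earlier results of these data known. The fit was repeated without Ogg1-/- chow replicate 1, without each other array, with other fold thresholds, scalings, weights, filters and priors, with a replicate block, on the 12 arrays alone and with the methods' t-test. The code was tested on simulated data. Replicates are mice.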

Additional observations from a re-analysis of the deposited data

Results flagged for a closer look

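In some groups of 6 livers 1 liver lay far from the rest, with a gap to its nearest neighbour, as a share of the whole range, above Dixon's 95% critical value. This held for 22 of 238 groups examined (9.24%), and chow replicate 1 was the liver in 16 of them and another liver in 6. The groups are of genes and lists named in this report and share the same livers. The 5% that chance gives for a single group is therefore no yardstick for this share. Chow replicate 1 was far below the other chow-fed Ogg1-/- livers in the cholesterol genes Idi1 (gap of 0.836 of the range), Cyp51 (0.750), Stard4 (0.665) and Nsdhl (0.639), in Hadh (0.799), Msr1 (0.752), Rpl7 (0.737), Rps4x (0.682), Ppargc1a (0.680), Cyp4a12b (0.654) and Dnajc3 (0.632), and in the mean of the endothelial markers (0.692). It was far above them in Hamp2 (0.780), Ei24 (0.635) and the means of oxidative phosphorylation (0.678) and lymphocyte markers (0.650). Other livers stood apart in single genes. Chow replicate 2 was high in Apoa4 (0.733) and low in Ciart (0.738), and chow replicate 6 was low in Gpd1 (0.629). HFD replicate 4 was low in G0s2 (0.786) and in Hadh (0.702), and HFD replicate 1 was low in Pik3ca (0.697).

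The diet response of Tmeff2 differed between the genotypes with all arrays, by -1.17 (Ogg1-/- minus WT, log2). Its values lay below the array medians in all groups but the chow-fed Ogg1-/- livers. Among genes named in this report, the interaction was also called without chow replicate 1 in Cyp2b10 (1.46), Hamp2 (1.23), Nat8 (1.0), Aldh1b1 (0.99), H2ac4 (0.90), Slc45a3 (0.88) and Hspe1 (0.70), and in Bhlhe41 (-1.21), Stard4 (-1.10), Dnajc3 (-1.10) and Ppara (-0.66). They are part of the 179 genes called in that fit. Its 272 called probe sets were lower at 219 and higher at 53, a balance that the named genes do not show. None of these 11 named genes was called with all arrays. Their interactions were not checked gene by gene under a further change. The number of probe sets called fell from 272 to 11 without chow replicate 5 as well, and to 29 with the replicate number as a block.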

How the results depend on the processing

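With all arrays 1107 probe sets were called between the diets in Ogg1-/- livers (237 higher, 870 lower), 137 in WT livers and 1 in the interaction. Without a fold threshold these were 3388 (1630 and 1758), 329 and 1, and with a fold of at least 2 they were 179 (50 and 129), 59 and 1. Leaving out 1 array gave 474 to 2493 (170 to 440 higher, 304 to 2053 lower), 85 to 187 and 1 to 272. The interaction called 2 probe sets without HFD replicate 5 and 272 without chow replicate 1. Array weights gave 2123 (359 and 1764), 210 and 16. The 12 Ogg1-/- arrays alone gave 429 (180 and 249), and the methods' t-test, after Benjamini-Hochberg, 191 (111 and 80) and 72 in WT livers, with more higher than lower calls under the t-test. Without chow replicate 1 and without a fold threshold there were also more higher (4563) than lower (4472). The cause was not tested. Median centring gave 1066, quantile normalization 1014, centring on reference genes 1353, dim probe sets left out 1174, a trended robust prior 1083 and 1 probe set per gene 768.

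Without chow replicate 1, a further array left out gave 1984 to 2993 calls in Ogg1-/- livers and 11 to 589 in the interaction, chosen after seeing the data. Same-numbered chow-fed and HFD-fed livers had residual correlations of 0.43, 0.02, -0.04, 0.23, 0.10 and -0.08, so that the numbers were not taken as pairs. A block for the replicate number left 1112 calls in Ogg1-/- livers, and 29 in the interaction without chow replicate 1. It ended the call of Lpin2 (adjusted p = 0.0505) and of no other gene of the naming pool that the report names. Nat8 was at -0.06 with all arrays at 0.039 without chow replicate 3, and between -0.19 and 0.039 over all arrays left out in turn. Of 194 genes in the naming pool, 175 had an adjusted p under 0.05, and 87 kept it in each of 20 alternatives, the t-test not among them. Of the 175, 62 kept it under the methods' t-test and 113 did not. With the 12 Ogg1-/- arrays fitted alone, 99 kept it and 76 did not.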
